A study of Mus musculus with 4 samples.

Results

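The complement genes described here are *C3*, *C4b*, *C2*, *Cfb*, *Serping1*, *Cd55* and *Cd59a*, taken by name, with the *C1q* genes left out. Of these 7 genes, 6 have a row among the 18373 genes of the expression table and were analysed, and *C2* was not analysed here. They were measured by RNA-seq in 4 libraries of cultured LSECs (liver sinusoidal endothelial cells, which form the fenestrated wall of the liver's smallest vessels) from 8-week-old Balb/c mice. All cells were obtained by perfusion digestion of the liver and, according to the methods, density gradient and anti-CD146 magnetic beads. They were seeded, cultured for 24 h and transfected for 48 h, and are described as LSECs at day 3. The control group (NC, 2 libraries) received a control siRNA and the other group (si*Airn*, 2 libraries) received siRNA against the long noncoding RNA *Airn*. The methods speak of more than 1 si*Airn*, whereas both labels carry the name siAirn1, so which siRNA went into which library is not settled. The libraries are called biological replicates 1 and 2, but no source says that they came from separate mice, so p-values measure the spread between these libraries, which may be technical.

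Complement is a set of plasma and membrane proteins that marks particles and cells for uptake or lysis. The classical and lectin pathways cleave C4 and C2 to form an enzyme that cleaves C3, and the alternative pathway forms such an enzyme from C3 itself and factor B. Host cells are protected by inhibitors in plasma, such as the C1 inhibitor, and by inhibitors on their surface, such as CD55 and CD59. Hepatocytes are the main source of plasma complement, and endothelial cells, macrophages and fibroblasts also make components of it. The LSEC surface faces blood plasma directly, and membrane inhibitors are a regular part of endothelial cells.

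Each library held between 17308382 and 18371959 estimated counts. The targeted gene *Airn* (chr17:12741311-12860136, plus strand) was barely detected, at 7 counts in NC replicate 1, 3 in NC replicate 2, 11 in si*Airn* replicate 1 and 9 in si*Airn* replicate 2, a ratio of si*Airn* to NC of 1.97 with an exact binomial 95% interval of 0.88 to 4.71 for counting error only. *Airn* was thus not lower under the si*Airn* label, so NC and si*Airn* stand here for the libraries labelled as such, and every direction rests on those labels. Markers of LSECs were detected in every library, and their level, summed over 11 genes, was 1238 and 1259 FPKM (a level scaled to transcript length and library size) in NC against 888 and 795 in si*Airn*. In bulk samples, fewer cells of a type and less RNA per cell cannot be told apart.

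Of the 6 genes, *Cd55* and *Cd59a* fell in the si*Airn* libraries, and both encode inhibitors on the cell surface. Other surface inhibitor genes, named after their values were seen, did not pass the test. Log2 fold changes were -0.10 for *Cr1l* (adjusted p = 0.408, edgeR), 0.20 for *Cd46* (0.357), -0.83 for *Susd4* (0.215) and -0.84 for *Vsig4* (0.134). The values of *Susd4* and *Vsig4* were thus as low as those of *Cd55* and *Cd59a*, but less precise. Standard errors were 0.42 for *Susd4* (9 to 23 counts per library) and 0.34 for *Vsig4* (58 to 159), against 0.08 for *Cd55* and 0.10 for *Cd59a*. *Cd55* encodes decay-accelerating factor, which takes apart the C3-cleaving enzymes, and *Cd59a* encodes the inhibitor of the membrane attack complex. *Cd55* fell by 43.5% and *Cd59a* fell by 42.9%, and for each the groups did not overlap. The genes of secreted proteins did not pass the same test. Their log2 fold changes were 0.67 for *C3*, the central component, 0.28 for *C4b*, -0.38 for *Cfb* (factor B) and -0.10 for *Serping1* (C1 inhibitor), and the groups overlapped for all of these but *C3*. By edgeR's quasi-likelihood test at an adjusted p under 0.05 over the 13628 genes tested, 2 of the 6 genes were called lower, against 8.56% of all genes. None was called higher, against 8.27%. At an unadjusted p under 0.05 there were 1 higher gene, *C3*, and 2 lower genes, against 16.8% and 17.2% of all genes. DESeq2 called 1 gene higher (7.69% of the genes to which it gave an adjusted p), as did edgeR's likelihood-ratio test (11.5%), and limma on log2(FPKM + 1) called none (7.91%).

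The groups did not overlap for 1 gene that was higher and 2 that were lower in si*Airn*, while such a separation was found for 30.9% and 31.9% of all genes. At the threshold given in the methods, a fold change over 1.4 with an unadjusted p under 0.05, the calls were *C3* higher (5.25% of all genes) and *Cd55* and *Cd59a* lower (4.72%). The median log2 fold change of the 6 genes was -0.24, and that of all genes tested was 0.00. With so few genes, these shares describe the list and no more.

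**Figure D1:**
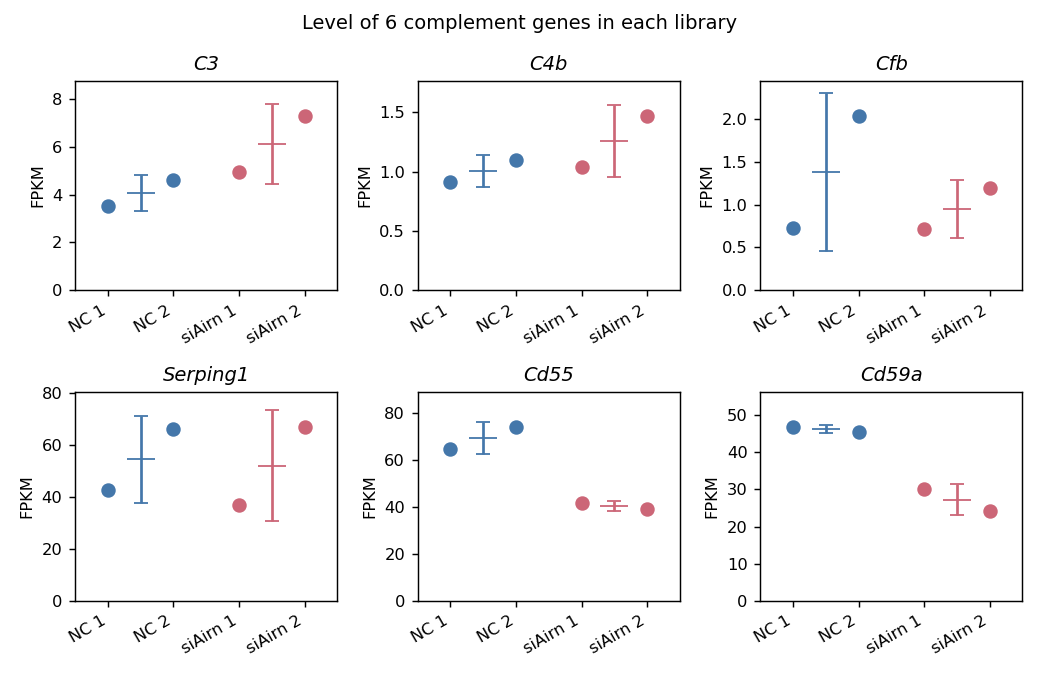
FPKM of each complement gene in the 4 libraries (points), with the mean and SD of each group (n = 2) as bars. *Cd55* and *Cd59a* are lower in both si*Airn* libraries than in both NC libraries, whereas the points of *Serping1* and *Cfb* spread within each group.

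*Cd55* (gene ID 13136) lies at chr1:130439027-130462744 on the minus strand (GRCm38, GENCODE M21). It had 64.75 FPKM in NC replicate 1, 74.34 in NC replicate 2, 41.89 in si*Airn* replicate 1 and 39.08 in si*Airn* replicate 2. Both NC libraries were above both si*Airn* libraries, and the gap between the groups was wider than the difference between libraries of a group. The group levels were 69.5 ± 6.78 FPKM in NC and 40.5 ± 1.99 FPKM in si*Airn* (SD, n = 2 each). From counts of 2965 and 3563 in NC and 1960 and 1778 in si*Airn*, *Cd55* fell by 43.5%, a log2 fold change of -0.82 (standard error 0.08, 95% interval -1.02 to -0.63, adjusted p = 0.00508 by edgeR's quasi-likelihood test). Without NC replicate 2 the log2 fold change was -0.73 and the adjusted p was 0.0808, in a fit that called none of the 13913 genes, 3106 of which had an unadjusted p under 0.05. Over all alternatives the adjusted p of *Cd55* ran from 6.73e-14 to 0.0808.

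*Cd59a* (gene ID 12509) lies at chr2:104095801-104115354 on the plus strand. Its level was 46.96 FPKM in NC replicate 1 and 45.43 in NC replicate 2, and 30.25 FPKM in si*Airn* replicate 1 and 24.25 in si*Airn* replicate 2. Again both si*Airn* libraries lay below both NC libraries, and the NC libraries were almost equal. The means were 46.2 ± 1.08 FPKM in NC and 27.3 ± 4.24 FPKM in si*Airn* (SD, n = 2 each). *Cd59a* fell by 42.9%, a log2 fold change of -0.81 (standard error 0.10, 95% interval -1.05 to -0.57, adjusted p = 0.00751 by edgeR's quasi-likelihood test). In fits that assume the single library left in NC to vary like the others, leaving out NC replicate 1 gave an adjusted p of 0.071 and a log2 fold change of -0.79, and leaving out NC replicate 2 gave 0.0948 and -0.83. These fits called only 40 and 0 genes in all. Its range over all alternatives was 4.56e-10 to 0.0948.

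The decreases of *Cd55* and *Cd59a* placed them at percentiles 1.87 and 2.05 of the log2 fold changes of all genes tested. Each of these genes has a closely related copy in the mouse, *Cd55b* and *Cd59b*. *Cd55b* had between 0 and 2.01 counts per library and *Cd59b* between 1 and 3.03, too few for a test. In the annotated transcripts, 8.00% of the 50-base windows of *Cd55* (the read length) also occur in *Cd55b*, and 3.87% of those of *Cd59a* occur in *Cd59b*. A further 2.10% of the exonic bases of *Cd55* lie under the gene Gm16083 on the opposite strand, and the use of strand in counting is not stated.

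Endothelial markers moved in the same direction as these inhibitor genes. The summed level of 7 pan-endothelial markers was 3227 and 3062 FPKM in NC and 2292 and 1978 FPKM in si*Airn*, and 6 of these markers were lower at an adjusted p under 0.05 (edgeR), with a median log2 fold change of -0.58 over the 7. Of the 11 LSEC markers, 8 were lower by the same criterion, with a median of -0.58. Among all genes tested, 8.56% were lower by that criterion. Expressed as a percent of the pan-endothelial sum, a quantity chosen after the data were seen, *Cd55* was at 2.01% and 2.43% in NC and 1.83% and 1.98% in si*Airn*, so that NC replicate 1 and si*Airn* replicate 2 nearly met. For *Cd59a* the values were 1.46% and 1.48% in NC and 1.32% and 1.23% in si*Airn*. The groups did not overlap for either gene. As a percent of the LSEC sum, *Cd55* was at 5.23% and 5.91% in NC and 4.72% and 4.92% in si*Airn*. On that scale *Cd59a* was at 3.79% and 3.61% in NC and 3.41% and 3.05% in si*Airn*, again without overlap for either gene. Macrophage markers were also lower, at 199 and 252 FPKM in NC and 161 and 131 FPKM in si*Airn* summed over 13 genes, of which *Timd4* and *Cd163* had at most 4 counts in any library. Relative to that sum, the groups overlapped for both *Cd55* and *Cd59a*. What part the share of endothelial cells or macrophages has in the decrease was not tested.

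**Figure D2:**
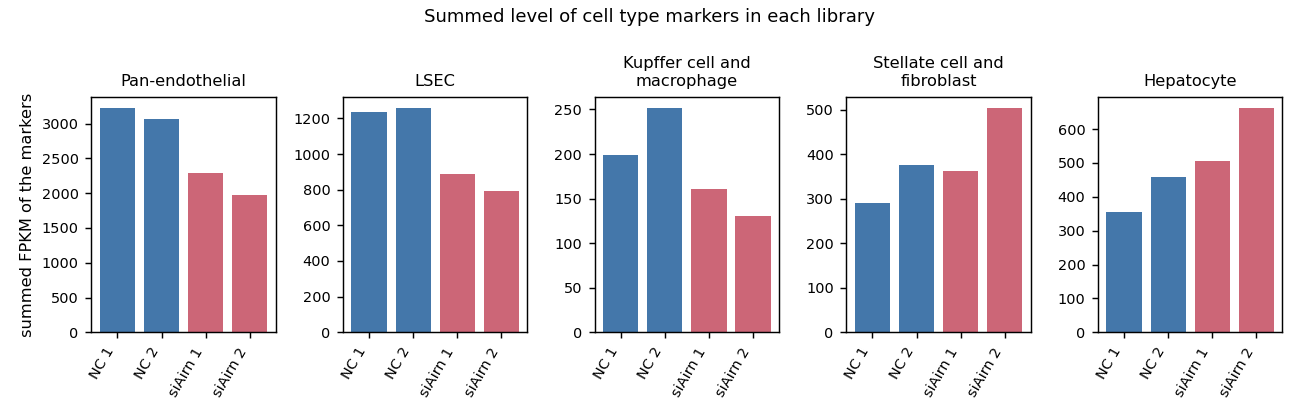
Summed FPKM (bars) of markers of 5 cell types in each library, each panel on its own scale from 0. Endothelial and macrophage sums are lower and hepatocyte sums higher in si*Airn*, and the hepatocyte and stellate cell sums are higher in replicate 2 than in replicate 1 of both groups.

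The promoters of the genes that separated the groups are shown because *Cd55* and *Cd59a* fell together and *C3* had the opposite sign. RefSeq sequences (GRCm38.p6) were matched for 3 of the 6 genes. Each line gives the 250 bases before the gene's start, 5′ to 3′ on the gene's own strand, with matches to the motifs searched in capitals. The windows are chr1:130462745-130462994 (minus strand) for *Cd55*, chr2:104095551-104095800 (plus strand) for *Cd59a* and chr17:57228137-57228386 (minus strand) for *C3*.
Cd55: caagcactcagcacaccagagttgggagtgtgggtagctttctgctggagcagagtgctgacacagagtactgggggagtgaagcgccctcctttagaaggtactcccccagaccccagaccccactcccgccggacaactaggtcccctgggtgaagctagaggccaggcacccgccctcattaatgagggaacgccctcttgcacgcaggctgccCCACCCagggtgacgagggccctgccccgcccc
Cd59a: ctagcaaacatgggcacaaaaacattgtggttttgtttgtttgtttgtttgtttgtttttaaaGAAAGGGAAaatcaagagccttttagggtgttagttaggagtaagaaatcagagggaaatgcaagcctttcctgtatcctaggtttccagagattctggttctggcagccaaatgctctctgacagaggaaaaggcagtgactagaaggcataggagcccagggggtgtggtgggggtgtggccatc
C3: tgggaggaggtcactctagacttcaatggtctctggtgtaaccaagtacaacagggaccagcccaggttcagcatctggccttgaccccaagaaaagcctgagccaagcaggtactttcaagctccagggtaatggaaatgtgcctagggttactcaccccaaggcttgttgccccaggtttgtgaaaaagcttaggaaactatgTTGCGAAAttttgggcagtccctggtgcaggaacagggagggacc

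The motifs searched on both strands were the STAT motif TTCNNNGAA, the IRF motif GAAANNGAA, the NF-kB motif, the C/EBP motif TTGCNNAA, the AP-1 motif TGANTCA, the CACCC box of KLF factors CCACCC and the CCAAT box CCAAT. No match overlapped another. *Cd55* held 1 CACCC box, which begins 33 bases before the start and which 28.1% of 32851 promoters of this length also hold. *Cd59a* held 1 IRF motif, beginning 187 bases before the start (7.13% of promoters), and *C3* 1 C/EBP motif, beginning 45 bases before it (9.56% of promoters). The promoters of the 2 genes that fell thus shared none of these letters, and a match is a description of the sequence only. RefSeq draws the gene models of *Cd55* and *Cd59a* from further upstream than these starts, and other starts were not searched.

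*C3* (gene ID 12266, chr17:57203970-57228136, minus strand) was the gene with the highest fold change of the 6. It had 3.54 FPKM in NC replicate 1, 4.61 in NC replicate 2, 4.94 in si*Airn* replicate 1 and 7.30 in si*Airn* replicate 2. All NC values were below all si*Airn* values, but NC replicate 2 and si*Airn* replicate 1 lay close together and si*Airn* replicate 2 stood highest. From counts of 210 and 277 in NC and 314 and 472 in si*Airn*, the log2 fold change was 0.67 (standard error 0.21, 95% interval 0.17 to 1.18), with an adjusted p of 0.0721 by edgeR's quasi-likelihood test. A fit with a replicate block called *C3* higher (log2 fold change 0.66, adjusted p = 0.00075, edgeR), but the replicate numbers were not taken as pairs. DESeq2's Wald test gave an adjusted p of 0.0373 and edgeR's likelihood-ratio test one of 0.0182, and the range over the alternatives without a replicate block was 0.00153 to 0.304. The value rested most on si*Airn* replicate 2, since the log2 fold change was 0.33 without it (adjusted p = 0.222, edgeR) and 0.95 without si*Airn* replicate 1 (adjusted p = 0.00153, edgeR).

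*C3* also differed between libraries in the transcript length that its count and FPKM imply. This length was 3427 and 3271 bases in NC and 3578 and 3685 bases in si*Airn*, so that its highest value was 1.13 times its lowest, against a median ratio of 1.02 over 12007 genes. On the FPKM scale, the mean of *C3* went from 4.08 ± 0.757 to 6.12 ± 1.67 (SD, n = 2 each), and limma gave a log2 fold change of 0.48 on log2(FPKM + 1) and 0.56 on log2(FPKM + 0.1). No 50-base window of *C3* occurs in another gene's transcripts, and none of its exonic bases lies under another gene's exons.

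Markers of hepatocytes and of stellate cells and fibroblasts had higher summed levels in si*Airn* than in NC on average. Of the 12 hepatocyte genes, 12 had a log2 fold change above 0. At an adjusted p under 0.05 (edgeR), 1 was called higher, against 8.27% of all genes. The hepatocyte sum over the 12 genes was 354 and 460 FPKM in NC and 506 and 663 FPKM in si*Airn*. As a percent of that sum, *C3* was at 1.00% and 1.00% in NC and 0.976% and 1.10% in si*Airn*, with overlap between the groups. *Alb* alone had 253 and 324 FPKM of the hepatocyte sum in NC and 371 and 468 FPKM in si*Airn*. The percent thus follows *Alb* most and was not computed without that gene. Of the 11 stellate cell and fibroblast genes, 11 had a log2 fold change above 0 and 3 were called higher (edgeR), against 8.27% of all genes. Their sum was 289 and 375 FPKM in NC and 361 and 504 FPKM in si*Airn*, so that the groups overlapped. As a percent of it, *C3* was at 1.22% and 1.23% in NC and at 1.37% and 1.45% in si*Airn*, with no overlap. *Dcn* alone had 146 and 214 FPKM of the stellate cell and fibroblast sum in NC and 184 and 274 FPKM in si*Airn*. This sum and the percent of *C3* in it thus follow *Dcn* most, and neither was computed without that gene. Against the pan-endothelial sum *C3* was separated, at 0.110% and 0.151% in NC and 0.216% and 0.369% in si*Airn*. Which cells the *C3* reads came from, and the part of hepatocyte or stellate cell RNA in them, was not tested.

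*C4b* (gene ID 12268, chr17:34728380-34743882, minus strand) encodes the C4 protein that the classical and lectin pathways cleave. It had 0.91 and 1.10 FPKM in NC and 1.04 and 1.47 FPKM in si*Airn*. The groups overlapped, since si*Airn* replicate 1 lay between the NC libraries. The log2 fold change was 0.28 (95% interval -0.26 to 0.82, adjusted p = 0.423 by edgeR's quasi-likelihood test) and it was -0.01 without si*Airn* replicate 2. Of its 50-base windows, 34.6% also occur in the neighbouring copy *C4a*, which had 8.28 to 17.8 counts per library, so the split of reads between these genes is uncertain.

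*Cfb* (gene ID 14962, chr17:34856374-34862518, minus strand) encodes factor B, the protease subunit of the alternative pathway. Its level was 0.73 and 2.04 FPKM in NC and 0.71 and 1.19 FPKM in si*Airn*, from 37.5, 98.7, 39.2 and 66.8 estimated counts. NC replicate 2 was the highest library, and the difference within NC exceeded that between the groups. The log2 fold change of -0.38 had a 95% interval of -1.46 to 0.70 (adjusted p = 0.599 by edgeR's quasi-likelihood test), and without NC replicate 2 it was 0.42. The length implied by count and FPKM ran from 2632 bases in NC replicate 2 to 3198 in si*Airn* replicate 2, a ratio of 1.22. *Cfb* shares 73.0% of its 50-base windows, and 79.5% of its exonic bases on the same strand, with the gene model Gm20547, which also takes in exons of the adjacent *C2*. The count of *Cfb* may therefore include or lack reads of that model, and its level is uncertain.

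*Serping1* (gene ID 12258, chr2:84765387-84775444, minus strand) encodes the C1 inhibitor, which blocks the proteases that start the classical and lectin pathways. It was expressed as highly as the surface inhibitors, with 42.69 and 66.40 FPKM in NC and 37.01 and 67.18 FPKM in si*Airn*. Replicate 1 was low and replicate 2 high in both groups, and the groups overlapped fully. The log2 fold change was -0.10 with a 95% interval of -0.79 to 0.60 (adjusted p = 0.843 by edgeR's quasi-likelihood test), which corresponds to between 0.577 and 1.51 times the NC level. The value was -0.39 without NC replicate 1 and -0.60 without si*Airn* replicate 2, but 0.26 without NC replicate 2 and 0.27 without si*Airn* replicate 1. None of its windows or exonic bases is shared with another gene.

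The genes of the secreted proteins had their higher value in replicate 2 of each group. For *Serping1*, CPM (counts relative to TMM-scaled library size) in replicate 2 was 1.56 times that in replicate 1 in NC and 1.83 times in si*Airn*. For *Cfb* the ratios were 2.47 and 1.76, for *C3* 1.25 and 1.54, and for *C4b* 1.22 and 1.44. Among all genes tested, these differences lay at percentiles from 89.1 to 99.4 in NC and from 95 to 98.4 in si*Airn*. The surface inhibitor genes had ratios of 1.14 and 0.927 for *Cd55* and 0.968 and 0.814 for *Cd59a*, at percentiles 82.9 and 26.9 for *Cd55* and 38.2 and 8.66 for *Cd59a*. Marker sums of hepatocytes (ratios 1.30 and 1.31) and of stellate cells and fibroblasts (1.30 and 1.39) were also higher in replicate 2 of both groups, while the pan-endothelial sum was not (0.949 and 0.863). The part of these cell types in the difference between replicates was not tested, and no source states what libraries of the same number share.

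**Figure D3:**
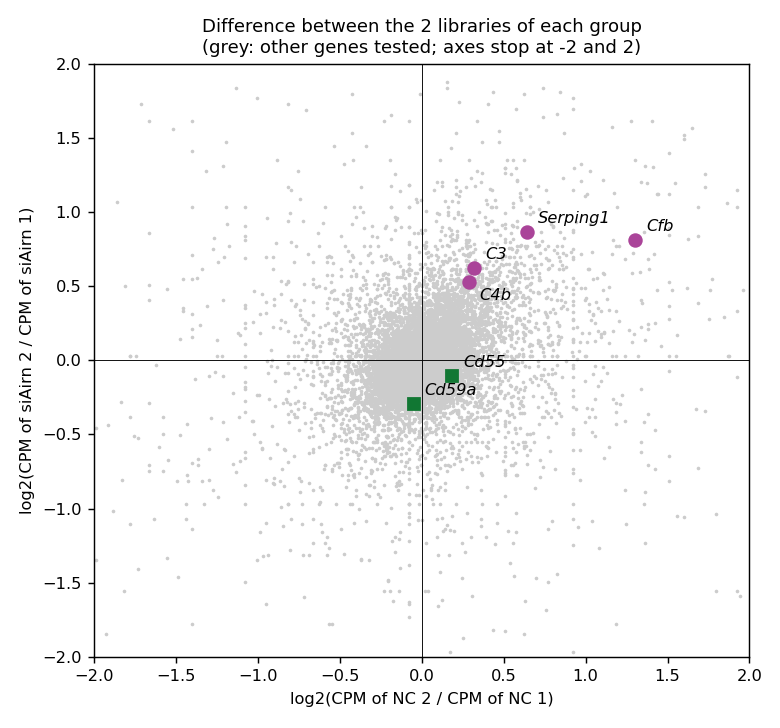
Log2 ratio of CPM between the libraries of each group, NC on the x axis and si*Airn* on the y axis, for the 6 complement genes and all other genes tested (grey). *Serping1*, *Cfb*, *C3* and *C4b* (circles) are positive on both axes, and *Cd55* (square) is above 0 in NC and below 0 in si*Airn*, and *Cd59a* (square) is below 0 on both axes.

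Each library was left out in turn. *Cd55* stayed between -0.92 and -0.73 and *Cd59a* between -0.96 and -0.67 on the log2 scale. Every value of *C3* was also on one side of 0 (0.33 to 0.95), while *C4b* (-0.01 to 0.52), *Cfb* (-0.88 to 0.42) and *Serping1* (-0.60 to 0.27) took both signs.

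**Figure D4:**
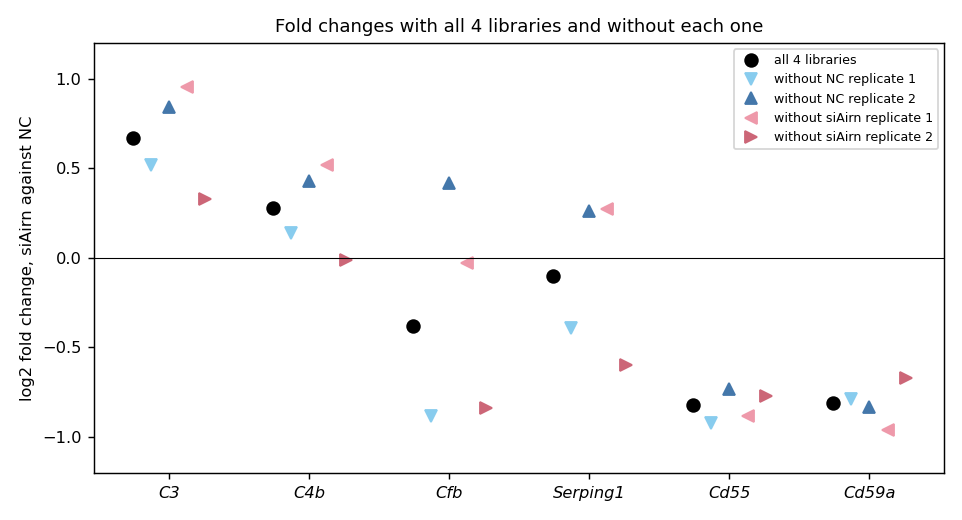
Log2 fold change (si*Airn* against NC) of each complement gene with all 4 libraries (black) and without each library in turn (coloured symbols). The values of *Cd55* and *Cd59a* all lie at -0.67 or lower, and those of *C4b*, *Cfb* and *Serping1* fall on both sides of 0.

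In level per length, the 6 genes fell into a high and a low set. In NC the order was *Cd55* (69.5 FPKM), *Serping1* (54.5), *Cd59a* (46.2), *C3* (4.08), *Cfb* (1.39) and *C4b* (1.01). *Cd55* and *Serping1* overlapped between libraries, as did *Serping1* and *Cd59a* and also *Cfb* and *C4b*, whereas *Cd59a* and *C3* were far apart. In si*Airn* the order was *Serping1* (52.1 FPKM), *Cd55* (40.5), *Cd59a* (27.3), *C3* (6.12), *C4b* (1.26) and *Cfb* (0.95), and the ranges of *Serping1* and *Cd55* overlapped, as did those of *C4b* and *Cfb*. Among all genes tested, *Cd55*, *Serping1* and *Cd59a* were at percentiles 87.0, 86.6 and 80.1 of level, and *C3*, *Cfb* and *C4b* at 35.7, 16.2 and 15.8.

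Of 45 other complement genes listed, 43 had a row and 32 could be tested. By edgeR's quasi-likelihood test, 1 of these 32 genes was lower and none higher with the adjusted p under 0.05 (8.56% and 8.27% of all genes), 14 had a log2 fold change above 0 and 18 below it, and the median log2 fold change was -0.10. At an unadjusted p under 0.05 there were 2 higher and 3 lower genes (16.8% and 17.2% of all genes), DESeq2 called none (7.69% higher and 7.96% lower of all genes), and 1 higher gene was called by the likelihood-ratio test of edgeR (11.5%). The 1 gene called was *Itgb2*, the shared β chain of the complement receptors CR3 and CR4 on leukocytes. It had 4.73 and 4.92 FPKM in NC and 3.84 and 2.89 FPKM in si*Airn*, and its log2 fold change was -0.56 (95% interval -0.93 to -0.20, adjusted p = 0.049 by edgeR's quasi-likelihood test). Its call was lost under DESeq2 (adjusted p = 0.10), limma on log2(FPKM + 1) (adjusted p = 0.0748) and the correction for GC content and length (log2 fold change -0.48, adjusted p = 0.0955, edgeR), and without si*Airn* replicate 2 (-0.39, adjusted p = 0.15, edgeR). The log2 fold change was -0.60 without NC replicate 1 (adjusted p = 0.155, edgeR) and -0.53 without NC replicate 2 (adjusted p = 0.219, edgeR), in fits that called only 40 and 0 genes in all. Without a replicate block, the range over its alternatives was 0.0108 to 0.219.

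**Figure D5:**
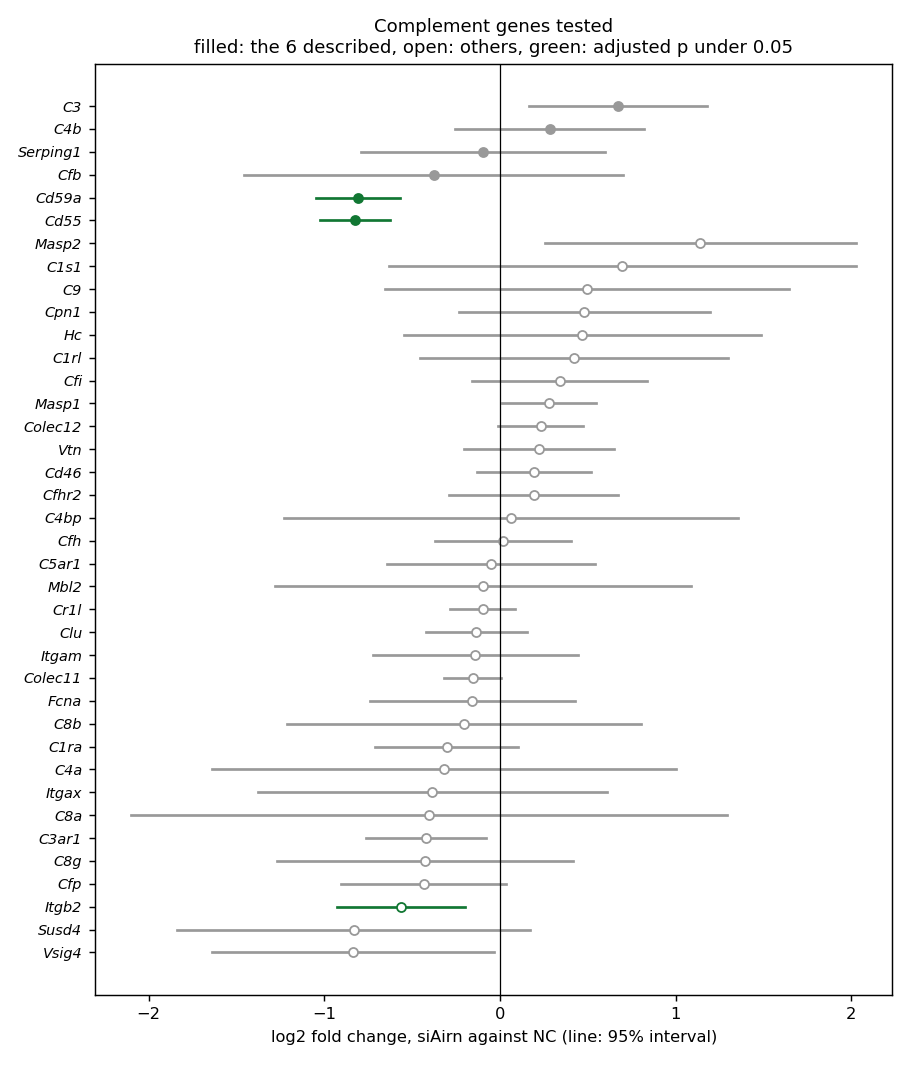
Log2 fold change (si*Airn* against NC) with its 95% interval for the 6 complement genes (filled) and the 32 others tested (open), green at an adjusted p under 0.05. *Cd55*, *Cd59a* and *Itgb2* are green, and most other intervals span 0.

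Other genes are named for their role, chosen after their values were seen. *Cr1l* encodes Crry, the membrane inhibitor of C3 activation that rodents express widely. It had 63.33 and 64.81 FPKM in NC and 58.57 and 64.08 FPKM in si*Airn*, and the groups overlapped. Its log2 fold change was -0.10 with a 95% interval of -0.28 to 0.08 (adjusted p = 0.408 by edgeR's quasi-likelihood test). *Cd46*, a membrane cofactor of C3b cleavage, was at 2.44 and 2.55 FPKM in NC and 3.01 and 2.72 FPKM in si*Airn*. *Susd4*, a membrane inhibitor, had 0.43 and 0.41 FPKM in NC and 0.28 and 0.18 FPKM in si*Airn*, with no overlap and a 95% interval of -1.84 to 0.17 for the log2 fold change. *Vsig4*, a complement receptor of macrophages that inhibits C3 activation and is also in the macrophage marker list, had 3.29 and 6.60 FPKM in NC and 3.19 and 2.52 FPKM in si*Airn*, with no overlap and an interval of -1.64 to -0.04. It was past the threshold of the methods but not that of the adjusted p. The intervals of both genes include the log2 fold changes of *Cd55* and *Cd59a*, and differences between genes were not tested. The highest levels of the list were those of *Colec11*, a collectin that starts the lectin pathway, and *Masp1*, a protease bound to such lectins. *Colec11* had 284.7 and 310.5 FPKM in NC and 283.9 and 268.1 FPKM in si*Airn*, with a log2 fold change of -0.16 (adjusted p = 0.164, edgeR). *Masp1* had 153.2 and 167.8 FPKM in NC and 157.0 and 197.3 FPKM in si*Airn*, with a log2 fold change of 0.28 (adjusted p = 0.135, edgeR). *Masp2*, named for its value, had the highest log2 fold change of the 32 genes tested, 1.14 (95% interval 0.26 to 2.02, adjusted p = 0.0788, edgeR). Its counts were low, at 13.4 and 14.8 in NC and 37.4 and 25.9 in si*Airn*. *Masp2* was past the threshold of the methods but not that of the adjusted p.

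Cytokine receptors, transcription factors and the signalling suppressors *Socs1* and *Socs3*, of pathways known to act on complement genes in other cells, were also listed. All 25 were tested, and 1 was lower and none higher at an adjusted p under 0.05 (edgeR's quasi-likelihood test), against 8.56% and 8.27% of all genes. At an unadjusted p under 0.05, 2 were higher and 5 lower, against 16.8% and 17.2%. DESeq2 and limma on log2(FPKM + 1) likewise called none higher, against 7.69% and 7.91% of all genes. With edgeR's likelihood-ratio test 1 was called higher, against 11.5% of all genes. Their log2 fold changes ran from -0.56 to 0.43 with a median of -0.03. The gene called was *Irf8*, a transcription factor of the interferon response and of macrophages, which fell from 49.49 and 48.67 FPKM in NC to 37.62 and 30.75 FPKM in si*Airn*. Both si*Airn* libraries lay below both NC libraries, and the log2 fold change was -0.56 (95% interval -0.79 to -0.34, adjusted p = 0.0137 by edgeR's quasi-likelihood test). By the same edgeR test, leaving out NC replicate 1 gave an adjusted p of 0.0931 and leaving out NC replicate 2 one of 0.116, with log2 fold changes of -0.56 and -0.57 in fits that called 40 and 0 genes in all. These adjusted p-values were the highest over its alternatives, and the lowest was 7.8e-06 by edgeR's likelihood-ratio test.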

How the data were processed

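RNA-seq was performed on 4 libraries of mouse LSECs. The authors deposited estimated counts per gene, not normalized, and FPKM, which they scaled to transcript length and library size. The submitters' processing notes name BWA, Bowtie2 and RSEM and the build hg19, with no roles or versions, although the samples are from mouse, so the build behind the counts is not settled. The deposited group means were not used.

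Estimated counts were rounded to whole numbers, filtered with filterByExpr, scaled by TMM and tested with edgeR 4.0.16 (quasi-likelihood test) in R 4.3.3, si*Airn* against NC without covariates, with Benjamini-Hochberg adjustment over 13628 genes. Library totals were 17308382 to 18371959. Alternatives were DESeq2 1.42.0, limma 3.58.1 on log2 FPKM with a pseudocount of 1 or 0.1 (mean FPKM of at least 1), the likelihood-ratio test, other filters and scaling, correction for GC content and length (12948 genes, 95.0% of those tested) and leaving out each library. The procedure was also run on counts simulated from the count model that edgeR fits. Such counts cannot show how it behaves where these libraries depart from that model. The 7 complement genes were to be named with their values, as were related copies and, of the other complement genes and regulators, those with an adjusted p under 0.05. The complement genes and all lists were chosen with earlier results of these data known. Levels relative to marker sums and ratios between replicates were added after seeing the data. Positions and shared 50-base windows come from GENCODE M21 (GRCm38), which may differ from the annotation used for counting.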

Additional observations from a re-analysis of the deposited data

How the results depend on the processing

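*Cd55* and *Cd59a* kept their direction under every alternative run, and lost their calls only without an NC library (*Cd55* without NC replicate 2, *Cd59a* without either), where few or no genes were called at all. *C3* passed under DESeq2 (0.68), the likelihood-ratio test (0.67), the threshold of the methods (0.67) and the replicate block (0.66, adjusted p = 0.00075, edgeR). Log2 fold changes without each library in turn ran from 0.33 to 0.95 for *C3*, -0.01 to 0.52 for *C4b*, -0.88 to 0.42 for *Cfb*, -0.60 to 0.27 for *Serping1*, -0.92 to -0.73 for *Cd55* and -0.96 to -0.67 for *Cd59a*. *C4b* changed sign without si*Airn* replicate 2 (-0.01), *Cfb* without NC replicate 2 (0.42), and *Serping1* under the GC and length correction (0.04), without NC replicate 2 (0.26) and without si*Airn* replicate 1 (0.27). The cause was not tested.

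Over all genes, 1127 were higher and 1167 lower, against 715 and 643 at the threshold of the methods, 365 and 666 with the GC and length correction, and 0 to 1196 and 0 to 1214 without 1 library. Of the 6 complement genes, none was higher, against 1 at the threshold of the methods, under DESeq2, the likelihood-ratio test and the replicate block, and 0 to 1 without 1 library, and 2 were lower, against 0 to 2 without 1 library. Of the other complement genes, 0 were higher, against 1 at the threshold of the methods and under the likelihood-ratio test and 0 to 2 without 1 library, and 1 was lower, against 2 at the threshold of the methods, 0 under DESeq2, without a filter, with limma at either pseudocount and with the GC and length correction, and 0 to 1 without 1 library. Of the regulators, 0 were higher, against 1 under the likelihood-ratio test and 0 to 1 without 1 library, and 1 was lower, against 2 under the likelihood-ratio test and 0 to 3 without 1 library.

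With the replicate block, the calls were 2405 higher and 2436 lower over all genes, 3 and 5 for the other complement genes and 1 and 6 for the regulators. The labels give no shared mouse or day for a number, and there are only 2 pairs, so the numbers were not taken as pairs. Deviations of same-numbered libraries had a correlation of 0.233 across 13628 genes and of 0.353 across the 10745 genes averaging 5 CPM or more. A lone library left in a group of 2 is assumed to vary like the others.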
